A study of Mus musculus with 22 samples.

Results

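The 10 genes described here mark or control epithelial-mesenchymal transition (EMT): Cdh1, Epcam, Vim, Fn1, Cdh2, Zeb1, Zeb2, Snai1, Snai2 and Twist1. They were taken by gene symbol from a table of 54514 gene entries, in which each of the 10 has 1 line. The table gives expression in 22 RNA-seq libraries of mpkCCD cells, an immortal line of mouse kidney cortical collecting duct, cultured on transwell filters and moved to a serum-free medium with dexamethasone. Unsorted wild-type (WT) cells received vehicle (3 libraries) or dDAVP (3 libraries), an agonist of the vasopressin V2 receptor. The 4 GFP reporter lines C1, C11, C43 and C50 are called clones here. Each clone was given dDAVP and sorted into GFP-negative cells (2 libraries) and GFP-positive cells (2 libraries). There are thus 10 groups, and no clone was measured without dDAVP. The labels do not say which dDAVP dose or duration applied to which library, nor which promoter drives GFP. The series title names variability of aquaporin-2 (Aqp2) expression between cells as the subject. Values are TPM (a transcript's share of the library, scaled to a fixed total), an abundance per transcript length that can be compared between genes, and sequencing depth is unknown.

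In epithelial-mesenchymal transition, epithelial cells give up their cell-cell junctions and apical-basal polarity and take on the adhesion and cytoskeleton of motile mesenchymal cells. E-cadherin (Cdh1) and EpCAM (Epcam) are adhesion proteins of epithelial cells. Vimentin (Vim), an intermediate filament protein, fibronectin (Fn1), a matrix glycoprotein, and N-cadherin (Cdh2) are the usual mesenchymal readouts. The transcription factors of the Snail (Snai1, Snai2), Zeb (Zeb1, Zeb2) and Twist (Twist1) families drive the program, and Snail and Zeb factors repress Cdh1 by binding E-box motifs in its promoter. In the kidney the program is best known from tubular injury and fibrosis.

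The bases before the transcription start of Epcam are shown as background. Epcam was chosen after its difference between the GFP fractions was seen, and no link of the motif to that difference was tested. RefSeq promoter sequences (GRCm38.p6) were at hand for 5 of the 10 genes: Epcam, Twist1, Snai1, Vim and Zeb2. The window printed lies at chr17:87635729-87635978 on the plus strand, ends at the base before the annotated start, and runs 5′ to 3′. Capitals mark the E-box CAGGTG, on either strand (CACCTG on the strand shown).
Epcam: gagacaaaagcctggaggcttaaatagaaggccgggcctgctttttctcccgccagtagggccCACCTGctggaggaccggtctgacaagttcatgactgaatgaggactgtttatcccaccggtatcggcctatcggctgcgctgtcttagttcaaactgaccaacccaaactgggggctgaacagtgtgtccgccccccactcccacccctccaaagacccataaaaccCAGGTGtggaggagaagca
The Epcam window held the motif at 2 places, beginning 187 and 19 bases before the start. Of 32851 promoter windows of the same 250 bases, 17.2% held it at least at 1 place and 2.06% at 2 or more. The window of Snai1 held 1 match, and those of Twist1, Vim and Zeb2 (4 starts) held none. A match describes the letters and no binding was measured.

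The epithelial side of the list was abundant, and on the mesenchymal side only Fn1 exceeded 10 TPM. Across the 22 libraries Epcam lay between 381.91 and 844.31 TPM, and Cdh1 between 125.28 and 631.92 TPM. Among all entries Epcam ranked from 142 to 443 by TPM and Cdh1 from 176 to 1539. Fn1 ranged from 0.62 to 103.25 TPM, Twist1 from 0 to 7.05 TPM and Cdh2 from 0 to 2.89 TPM. In the 20 libraries with Cdh2 above 0, Cdh1 exceeded Cdh2 by at least 133.8 times. The remaining 5 genes, Vim, Zeb1, Zeb2, Snai1 and Snai2, were under 1 TPM in every library.

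Vimentin transcripts were barely present in any group. Vim reached 0.15 TPM at most, in a WT dDAVP library, and was listed at 0 in 9 of 22 libraries. Snai1 reached 0.19 TPM (listed at 0 in 8 libraries), Snai2 0.32 TPM (11 libraries), Zeb1 0.93 TPM (7 libraries) and Zeb2 0.94 TPM (4 libraries). The highest Zeb1 value was in a WT dDAVP library and the highest Zeb2 value in a WT vehicle library. For each of these 5 genes, groups next to each other in the order of means had overlapping libraries. No comparison tested these genes, since their mean was under the minimum of 1 TPM.

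Their scatter went along with the number of genes detected per library. In 12 libraries 23135 to 31292 entries had a TPM above 0, and in the other 10 libraries 17177 to 20250. Zeb1 was listed at 0 in 7 of those 10 libraries and in 0 of the 12. Snai2 was listed at 0 in 10 of the 10 and in 1 of the 12, and Vim in 8 of the 10 and 1 of the 12. Snai1 differed from this pattern, with zeros in 3 of the 10 and 5 of the 12. The summed TPM of 10 fibroblast markers was 0.01 to 0.68 in the 10 libraries and 0.20 to 3.60 in the 12. What the number of detected genes contributes to these low values was not tested.

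**Figure D1:**
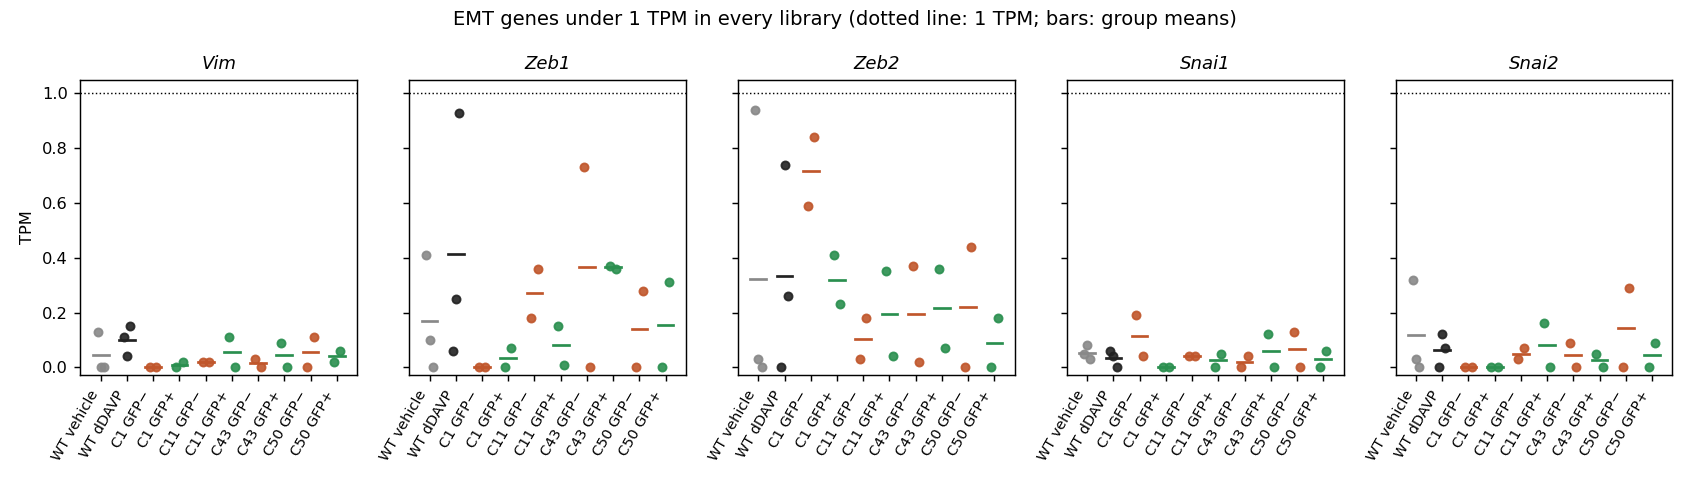
TPM (linear axis) of Vim, Zeb1, Zeb2, Snai1 and Snai2 in each of the 22 libraries, by group; points are libraries, bars are group means and the dotted line is 1 TPM. No library reaches 1 TPM for any of the 5 genes, and single libraries set several group means, as for Zeb1 in WT dDAVP cells (highest library 0.93 TPM).

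The libraries matched their labels for the reporter. GFP transcript was 0 to 0.79 TPM in WT libraries, 5.31 to 17.57 TPM in GFP-negative and 1064.51 to 1566.94 TPM in GFP-positive libraries. Aqp2, the vasopressin-regulated water channel of principal cells, was 64.11 to 74.9 TPM in WT vehicle and 2758.96 to 3024.7 TPM in WT dDAVP libraries. It was 66.5 to 1679.76 TPM in GFP-negative and 2007.53 to 7254.3 TPM in GFP-positive libraries. Fibroblast markers were at or near 0: 9 of 10 were under 1 TPM in every library, including Col1a1, Col1a2 and Pdgfra. Of the leukocyte markers Csf1r was the most abundant (7.05 to 21.51 TPM), and Ptprc stayed at 0.09 to 1.87 TPM. 1 library stood apart: GFP-negative replicate 1 of C50 had 8.32% of its TPM in ribosomal-protein genes, against 3.85% to 6.12% in the others, and the lowest Cdh1 value. Several results that moved when it was left out are given below with their value without it, among the 10 genes, the related lists and the likeness of pattern.

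dDAVP in unsorted WT cells was examined first. Of the 10 genes, 4 passed the minimum mean of 1 TPM over the 6 libraries, and 0 of these 4 were called changed by limma (Benjamini-Hochberg adjusted p under 0.05), against 8.88% of 13494 genes (2.37% higher and 6.51% lower). Without adjustment 1 of the 4, Epcam, had a p under 0.05. Changes here are differences of means of log2(TPM + 1), and all tests are two-sided. The labels do not say that replicates came from separate cultures, so p-values measure the spread between these libraries only.

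Epcam was 630.82, 637.55 and 650.05 TPM with vehicle and 549.08, 496.46 and 557.5 TPM with dDAVP. The groups did not overlap, as for 28.7% of all tested genes in that direction. The log2 difference was -0.26 (SE 0.067, limma adjusted p = 0.054), set against a median of -0.157 over all tested genes. Median-ratio scaling, which moves that median to 0.000, left Epcam at -0.09 (adjusted p = 0.661), and over all alternatives its adjusted p ran from 0.0136 to 0.661. Cdh1 was 631.92, 581.03 and 524.18 TPM with vehicle and 413.62, 570.4 and 469.48 TPM with dDAVP, with overlapping groups (log2 difference -0.27, adjusted p = 0.201).

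Fn1 was 72.06, 37.21 and 47.77 TPM with vehicle and 28.67, 44.98 and 29.4 TPM with dDAVP. The groups overlapped and the log2 difference of -0.57 (SE 0.26) had a limma adjusted p of 0.183. Twist1 was 2.72, 2.19 and 3.14 TPM with vehicle and 2.91, 1.86 and 2.01 TPM with dDAVP (adjusted p = 0.595). Cdh2, under the minimum, was 0.66 to 0.88 TPM with vehicle and 0.46 to 0.69 TPM with dDAVP. Thus 0 of the 4 genes tested were called, and the other 6 were not tested.

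The GFP fractions of the clones differed more. Fn1 was 10.36-fold lower in GFP-positive than in GFP-negative cells, Epcam was 1.63-fold lower, and Cdh2 fell from a low level. Cdh1 and Twist1 did not pass the test. Over the 16 clone libraries, with clone as a covariate, 5 of the 10 genes were tested and 3 were called, 0 higher and 3 lower, where 35.3% of 13113 genes were called (12.1% higher and 23.2% lower). Of the 3, Cdh2 could be tested only because of its level in GFP-negative cells. With its GFP-positive level, no other direction could have been tested. In bulk libraries, fewer cells that express a gene and less RNA per cell cannot be told apart.

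**Figure D2:**
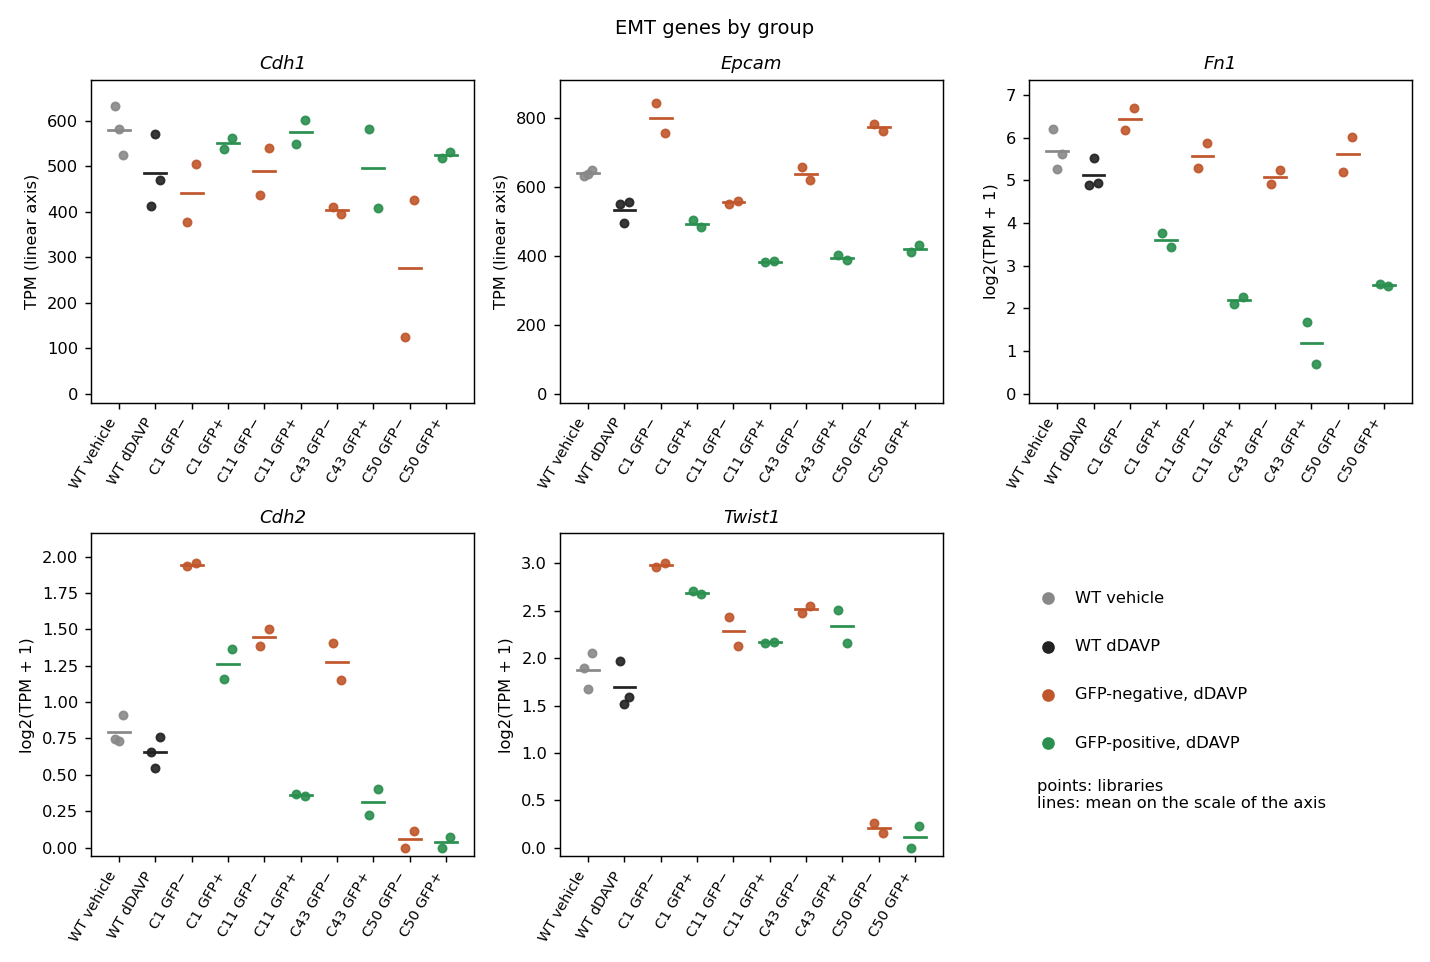
Expression of Cdh1 and Epcam (TPM, linear axis) and of Fn1, Cdh2 and Twist1 (log2(TPM + 1)) in each library by group; points are libraries and lines are means on the scale of each axis. Fn1 and Epcam are lower in both GFP-positive libraries of each clone than in both GFP-negative ones, and Twist1 and Cdh2 are near 0 in the 4 libraries of C50.

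Fibronectin had the largest difference of the list. In GFP-negative libraries Fn1 was 71.35 and 103.25 TPM in C1, 37.95 and 57.3 TPM in C11, 28.95 and 36.98 TPM in C43, and 35.69 and 64.01 TPM in C50. In GFP-positive libraries it was 12.55 and 9.75 TPM in C1, 3.31 and 3.82 TPM in C11, 2.22 and 0.62 TPM in C43, and 4.96 and 4.79 TPM in C50. All 8 GFP-positive libraries were below all 8 GFP-negative ones, as for 4.72% of tested genes. The means were 54.4 ± 24.9 TPM (SD, n = 8) and 5.25 ± 3.97 TPM (SD, n = 8), a ratio of 10.36. The log2 difference was -3.29 (SE 0.189, limma adjusted p = 2.12e-08). The fold of the means was 7.83 for C1, 13.36 for C11, 23.21 for C43 and 10.23 for C50. That of C43 was 53.17 without GFP-positive replicate 1 and 14.85 without GFP-positive replicate 2. For C50 it was 13.13 without GFP-negative replicate 1 and 7.32 without GFP-negative replicate 2. In unsorted WT cells Fn1 lay at 28.67 to 72.06 TPM, inside or just under the GFP-negative range of 28.95 to 103.25 TPM and above every GFP-positive library. Sorted and unsorted cells differ in handling, and this was not tested.

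Epcam moved in the same direction as Fn1, although it is an epithelial adhesion gene. GFP-negative libraries had 844.31 and 756.94 TPM in C1, 550.87 and 559.54 TPM in C11, 656.53 and 619.85 TPM in C43, and 782.77 and 763.14 TPM in C50. GFP-positive libraries had 503.25 and 483.83 TPM in C1, 381.91 and 384.6 TPM in C11, 401.71 and 387.29 TPM in C43, and 410.18 and 432.28 TPM in C50. Here too the 8 GFP-positive libraries lay below the 8 GFP-negative ones. The means were 692 ± 110.0 and 423 ± 46.7 TPM (SD, n = 8 each), with a log2 difference of -0.70 (SE 0.051, limma adjusted p = 1.67e-07). The fold of the means ran from 1.45 in C11 to 1.83 in C50.

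E-cadherin was not called lower with EpCAM. Cdh1 in GFP-negative libraries was 377.2 and 505.31 TPM in C1, 436.47 and 540.92 TPM in C11, 409.93 and 396.0 TPM in C43, and 125.28 and 426.88 TPM in C50. In GFP-positive libraries it was 537.75 and 562.55 TPM in C1, 548.16 and 600.59 TPM in C11, 581.68 and 409.3 TPM in C43, and 518.37 and 532.18 TPM in C50. The GFP-positive libraries were above the GFP-negative ones without overlap in C1, C11 and C50, as were 19.8%, 18.9% and 27.8% of all tested genes, and overlapped them in C43. The log2 difference over clones was 0.51 (SE 0.208, limma adjusted p = 0.0739). Without GFP-negative replicate 1 of C50, the library with 125.28 TPM, it was 0.28 with an adjusted p of 0.00911, and without GFP-negative replicate 2 of C50 it was 0.61 with an adjusted p of 0.0364. Median-ratio scaling gave 0.59 with an adjusted p of 0.0101.

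The balance of the 2 epithelial genes separated the fractions. The ratio of Cdh1 to Epcam TPM was 0.160 to 0.967 in the 8 GFP-negative libraries and 1.057 to 1.562 in the 8 GFP-positive libraries. WT libraries spanned both sides, at 0.806 to 1.002 with vehicle and 0.753 to 1.149 with dDAVP. The ratio of Epcam to Fn1 TPM was 7.33 to 22.7 in GFP-negative and 40.1 to 625 in GFP-positive libraries. Epcam alone and Fn1 alone already separated the fractions, so ratios built from them are no further support. They are given as a description with no test.

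**Figure D3:**
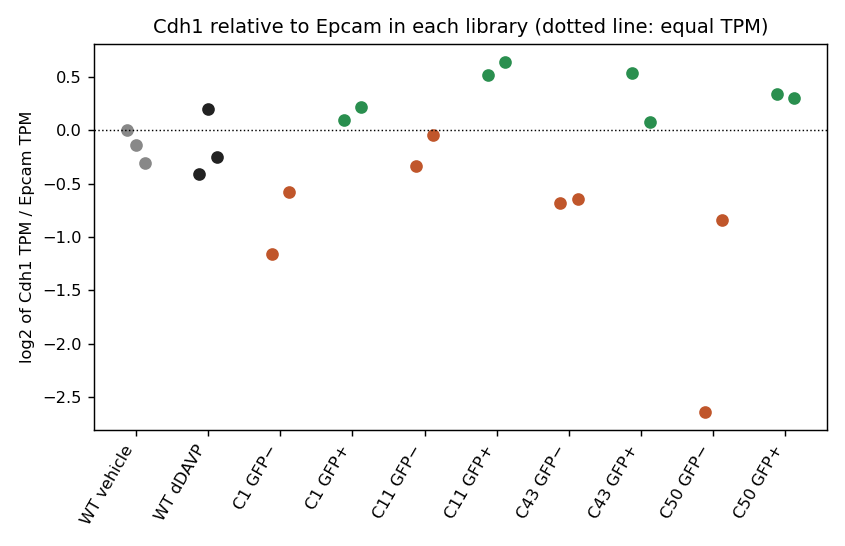
Log2 of the ratio of Cdh1 TPM to Epcam TPM in each library, by group; points are libraries and the dotted line marks equal TPM. The 8 GFP-positive libraries lie above the line and the 8 GFP-negative libraries below it; the lowest point, a ratio of 0.160, is GFP-negative replicate 1 of C50.

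N-cadherin transcripts were rare, and their difference rested on 3 of the 4 clones. Cdh2 in GFP-negative libraries was 2.82 and 2.89 TPM in C1, 1.62 and 1.84 TPM in C11, 1.65 and 1.22 TPM in C43, and 0 and 0.08 TPM in C50. In GFP-positive libraries it was 1.23 and 1.58 TPM in C1, 0.29 and 0.28 TPM in C11, 0.17 and 0.32 TPM in C43, and 0 and 0.05 TPM in C50. The GFP-positive libraries were below the GFP-negative ones without overlap in C1, C11 and C43, as were 35%, 42.2% and 42.1% of all tested genes. Over clones the means were 1.52 ± 1.08 and 0.49 ± 0.58 TPM (SD, n = 8 each), with a log2 difference of -0.69 (SE 0.159, limma adjusted p = 0.00345). Its mean over the 16 libraries only just passes the minimum of 1 TPM, through the GFP-negative libraries. At its GFP-positive level it could be tested only if it was higher in GFP-negative cells. Without clone C11 the adjusted p was 0.0563, and with the clone means as replicates it was 0.0861.

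Twist1 differed little between the fractions. The means were 3.92 ± 2.62 TPM in GFP-negative and 3.28 ± 2.14 TPM in GFP-positive libraries (SD, n = 8 each), with a log2 difference of -0.17 (SE 0.099, limma adjusted p = 0.209). Within clones C1, C11, C43 and C50 its differences were -0.29, -0.12, -0.18 and -0.09, none of them called, and the last 3 changed sign under at least 1 alternative.

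Fn1 and Epcam were called lower within each clone. In C1 they were the 2 genes called of 5 tested, where 7.22% of all genes were called and 4.91% called lower. In C11 and C43 the count was 3 of 5, with Cdh2, where 7.94% and 16.3% of all genes were called (5.7% and 12% lower). In C50 it was again 2 of 5, where 26.6% of all genes were called and 13.8% called lower. The Fn1 log2 differences for C1, C11, C43 and C50 were -2.85, -3.39, -3.88 and -3.06 (SE 0.355 each), with limma adjusted p-values from 3.94e-05 to 0.000581. Those of Epcam were -0.70, -0.53, -0.69 and -0.87 (SE 0.0768 each), with adjusted p-values from 1.98e-05 to 0.00174. The Epcam difference in C11 was -0.38 under median-ratio scaling and was no longer called (adjusted p = 0.150).

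For Cdh2 the same 4 differences were -0.68, -1.09, -0.96 and -0.02 (SE 0.245 each). Only those of C11 (limma adjusted p = 0.0203) and C43 (adjusted p = 0.0214) were called, and under quantile normalization neither was (adjusted p = 0.0537 and 0.0692). The Cdh1 difference was largest in C50, at 1.18 (SE 0.41, adjusted p = 0.0539). Without GFP-negative replicate 1 it was 0.30 (adjusted p = 0.350), and without GFP-negative replicate 2 it was 2.06 (adjusted p = 2.8e-05).

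The fraction difference was not found to vary between clones for any of these genes. The limma interaction of fraction and clone called 0 of 5 tested genes, against 0.869% of all genes. Without adjustment 1 of the 5, Cdh2, had a p under 0.05 (limma adjusted p = 0.366). Without GFP-negative replicate 2 of C50 the interaction was called for 1 gene, Cdh1 (adjusted p = 0.00216), and without replicate 1 of that group for 0.

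**Figure D4:**
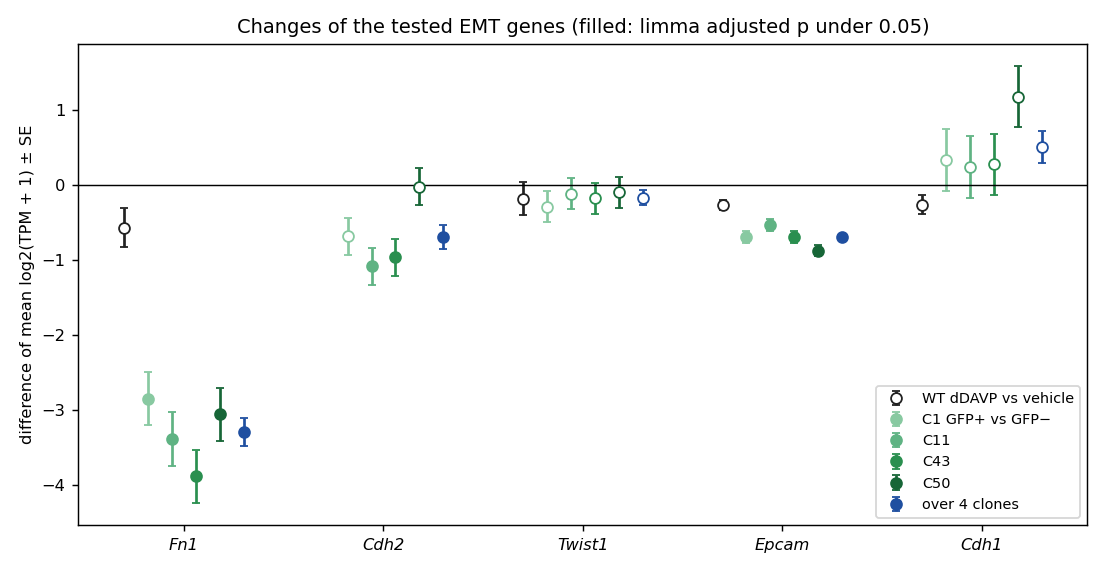
Differences of mean log2(TPM + 1) ± SE for the tested genes: dDAVP against vehicle in WT cells (black), GFP-positive against GFP-negative within each clone (green) and over the 4 clones (blue); filled points have a limma adjusted p under 0.05. Fn1 lies between -3.88 and -2.85 in the 4 clones, Epcam between -0.87 and -0.53, and no dDAVP point is filled.

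The clones themselves differed in the level of several of these genes whatever the fraction. Of the 5 genes tested, 4 were called in the limma test of differences between clones, where 31.6% of all genes were called: Twist1 (adjusted p = 8.52e-07), Cdh2 (0.000362), Epcam (0.000407) and Fn1 (0.00124). Cdh1 was not called (0.363), but was without GFP-negative replicate 2 of C50 (0.000384). C50 was the clone with almost no Twist1 and Cdh2. Its Twist1 values were 0.2, 0.11, 0 and 0.17 TPM, against 3.38 to 7.05 TPM in the 12 libraries of C1, C11 and C43. Both genes had all 4 C50 libraries below the 12 other clone libraries, as did 1.14% of tested genes. Cdh2 averaged 0.0325 TPM in C50 and 1.3258 TPM in the other clones, and passed the minimum of 1 TPM only through the latter. Its low C50 level and its call between clones are thus tied to the minimum. The comparison of C50 with the other clones was chosen after its values were seen.

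C1 had the most Twist1, at 6.78 and 7.05 TPM in its GFP-negative and 5.55 and 5.38 TPM in its GFP-positive libraries. C11 had 4.4, 3.38, 3.47 and 3.51 TPM, and C43 had 4.57, 4.88, 4.71 and 3.48 TPM. All 4 libraries of C1 were above the 12 others, as for 3.94% of tested genes. This comparison was also chosen after the values were seen. WT cells, at 1.86 to 3.14 TPM, lay between C50 and the other clones. With C50 left out, Twist1 (adjusted p = 0.0108) and Cdh2 (adjusted p = 0.0106) still differed between C1, C11 and C43. The levels of Twist1 and Cdh2 were both highest in C1 and lowest in C50, while Vim was at 0 to 0.11 TPM in all 4 clones.

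By group means, Fn1 was highest in C1 GFP-negative cells (87.3 TPM) and lowest in C43 GFP-positive cells (1.42 TPM). From C1 GFP-negative down to C43 GFP-negative, groups next to each other in this order overlapped, and below that the 4 GFP-positive groups followed without overlap. Epcam ran from 801 TPM in C1 GFP-negative to 383.3 TPM in C11 GFP-positive cells, and its 4 lowest groups were the GFP-positive ones. For Cdh1 only 1 pair of neighbours in the order, C1 GFP-positive above C50 GFP-positive, did not overlap. For Fn1 without clone C1, the difference between clones was not called (adjusted p = 0.106).

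Genes related to the 10 were read in 7 lists of pathway partners and further markers, as counts beside the median of all tested genes. With dDAVP in WT cells, the counts below stand beside 8.88% of all tested genes called. Of 12 tested genes of cadherin-catenin and nectin adhesion, 0 were called in either direction. That count was 2 without WT dDAVP replicate 2 and 4 with detected genes as a covariate. Of 9 regulators of the epithelial state 0 were called, against 2 higher under median-ratio scaling and 1 under quantile normalization. At the list level the medians were -0.21 and -0.07, against -0.157 for all tested genes. Of 21 epithelial markers, 4 were higher and 1 lower (median 0.005), and 3 of the 21 were called when any 1 of 5 libraries was left out (all but WT dDAVP replicate 2). Of the 4 keratins in the list 3 were higher. Krt19 rose from 628 ± 69.0 to 1241 ± 35.7 TPM (log2 difference 0.99, limma adjusted p = 0.00165), with Krt18 at 0.63 and Krt8 at 0.44, and Krt7 was not called (0.125, adjusted p = 0.191). Krt18 had an adjusted p of 0.0640 under quantile normalization. The tight-junction gene Marveld2 was lower (-0.43) and lost its call under both scalings (adjusted p = 0.0978 and 0.136).

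Of 12 mesenchymal markers tested with dDAVP, 0 were higher and 3 lower (median -0.253): Tpm1 (-0.56), Cald1 (-0.52) and Ccn2 (-0.35). Tpm1 and Cald1 encode actin-binding proteins. Under median-ratio scaling 1 of the 3, Tpm1, was called. The count was 1 without WT vehicle replicate 1, WT vehicle replicate 3 or WT dDAVP replicate 3, and 2 without each of the other libraries. In the same libraries 7 of 10 cell-cycle genes were called lower (median -0.603), and their part in these differences was not tested. Of 16 further EMT transcription factors and cofactors, 1 was higher and 0 lower, and 3 were called without WT dDAVP replicate 2. This single gene was Id3, an inhibitor of basic helix-loop-helix factors, which rose from 75.4 ± 2.21 to 161 ± 13.1 TPM (log2 difference 1.08, adjusted p = 0.00066). Of 5 fibronectin receptor genes, 0 were higher and 1 lower, Itgb6 (-0.78, adjusted p = 0.00978); 2 were called without WT dDAVP replicate 2. Of 2 tested partners of vimentin, the intermediate filament gene Nes was lower (-0.58) and lost its call under median-ratio scaling (adjusted p = 0.0698). No partner was called without WT vehicle replicate 2 or 3.

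Between the GFP fractions, list counts stand beside 12.1% of all tested genes called higher and 23.2% called lower. Of 13 tested mesenchymal markers, 0 were higher and 10 lower in GFP-positive cells, with a median of -0.822 against -0.063 over all tested genes. Axl, a receptor tyrosine kinase, fell from 14.8 ± 12.6 to 1.34 ± 1.54 TPM (log2 difference -2.56, limma adjusted p = 6.96e-06). Tpm2, a tropomyosin gene, fell from 4.79 ± 4.51 to 0.14 ± 0.22 TPM (-2.05). The count was 0 higher and 10 lower also under median-ratio scaling, under quantile normalization and without GFP-negative replicate 1 of C50. Within clones C1, C11, C43 and C50 the counts called lower were 9, 6, 8 and 10, with 0 higher in each, beside 4.91%, 5.7%, 12% and 13.8% of all genes called lower. Of the 10 genes, 4, Tpm2 among them, averaged under 1 TPM in GFP-positive cells and were tested only through their level in GFP-negative cells. Of the 8 markers at 1 TPM or more in both fractions, 6 were lower and 0 higher. In the same libraries the summed TPM of 10 cell-cycle genes was 860.55 to 1483.4 in GFP-negative and 336.1 to 637.04 in GFP-positive cells, with 10 of 10 called lower. The leukocyte marker Csf1r was also lower (log2 difference -0.57). The part of these in the differences of Fn1 and the mesenchymal genes was not tested. The fibroblast markers summed to 0.01 to 3.60 TPM in GFP-negative and 0.06 to 2.81 TPM in GFP-positive libraries, and none reached a mean of 1 TPM.

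Fibronectin receptors and transcription factors followed in part. Of 5 tested fibronectin receptor genes, 0 were higher and 3 lower (median -0.441), against 23.2% of all genes called lower: the integrin subunits Itga5 (-0.82, limma adjusted p = 0.0085), Itgb6 (-0.59) and Itgb1 (-0.44). The count was 0 without clone C1 and 0 without clone C43, and 2 without C43 GFP-negative replicate 1 or C43 GFP-positive replicate 2. Without GFP-negative replicate 1 of C50 it was 3, with a median of -0.575 against -0.112 over all tested genes. Within single clones 0 of the 5 were called. Of 16 further EMT transcription factors and cofactors, 4 were higher and 8 lower (median -0.264). Without GFP-negative replicate 1 of C50, 4 were higher and 10 lower (median -0.368). Sox4 fell from 115 ± 13.9 to 21.6 ± 4.60 TPM (-2.38, adjusted p = 8.86e-10) and Id1 from 25.4 ± 2.60 to 6.45 ± 2.65 TPM (-1.91). Snai3, the third Snail family gene, fell from 2.76 ± 1.27 to 0.28 ± 0.21 TPM (-1.49, adjusted p = 6.6e-06), and was thus more abundant in GFP-negative cells than Snai1 or Snai2. It too passed the minimum of 1 TPM only through the GFP-negative libraries. Id3 (0.65), Foxc1 (0.52) and Ctbp2, a corepressor that Zeb factors recruit (0.38), were higher.

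**Figure D5:**
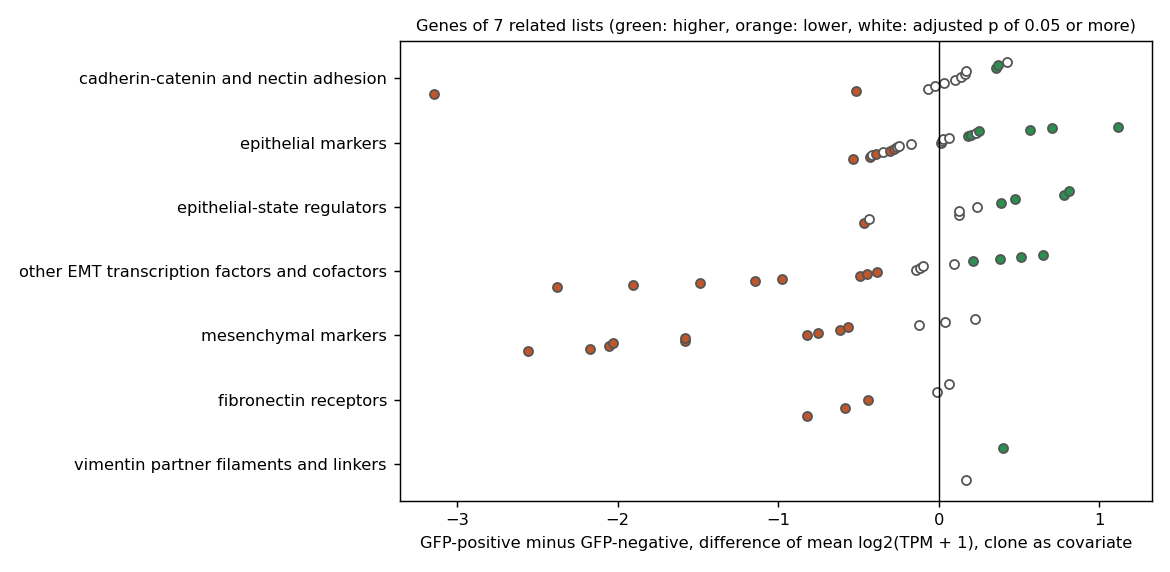
GFP-positive minus GFP-negative difference of mean log2(TPM + 1), with clone as a covariate, for the tested genes of 7 lists related to EMT; each point is a gene, green is called higher, orange called lower and white not called (limma adjusted p of 0.05 or more). The mesenchymal list has 10 of 13 points called lower and none higher, while the epithelial markers have 6 higher and 5 lower.

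The epithelial lists held calls in both directions. Of 21 epithelial markers, 6 were higher and 5 lower in GFP-positive cells (median 0.014), where 12.1% of all genes were called higher and 23.2% lower; the share of markers called lower was near that of all genes. Muc1, an apical mucin, rose from 587 ± 220 to 1212 ± 223 TPM (log2 difference 1.12, limma adjusted p = 3.82e-06), followed by Krt19 (0.70) and the desmosomal gene Dsp (0.57). The claudins Cldn4 (-0.53) and Cldn7 (-0.39) and the tricellular junction gene Lsr (-0.43) were lower, and Cldn4 lost its call under median-ratio scaling (adjusted p = 0.101). The split was 5 higher and 8 lower under quantile normalization, and 7 higher and 9 lower without GFP-negative replicate 1 of C50 (medians -0.106 and -0.134). Of 9 regulators of the epithelial state, 4 were higher and 1 lower (median 0.237). Without GFP-negative replicate 1 of C50 these were 4 and 2 (median 0.101, with all tested genes at -0.112), and under either scaling 5 and 2. The ETS factor Elf3 (0.81), the splicing regulator Esrp2 (0.78) and Ehf (0.48) were higher, and Ovol2, a zinc-finger repressor of EMT genes, was lower (-0.46).

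Other cadherins were read with the genes of their complex. Of 12 tested genes of cadherin-catenin and nectin adhesion, 2 were higher and 2 lower (median 0.119), near the 35.3% called among all genes. Without GFP-negative replicate 1 of C50 the counts were the same and the median was -0.009, and under either scaling 4 were higher and 2 lower. Cdh13 (T-cadherin, which lacks a cytoplasmic domain) fell from 23.6 ± 12.7 to 1.74 ± 1.48 TPM (log2 difference -3.15, limma adjusted p = 9.02e-08), a change close in size to that of Fn1. Cdh3 (P-cadherin) was lower (-0.51, adjusted p = 0.022). Cdh16, the kidney-specific cadherin, was more abundant than Cdh1 and rose from 1149 ± 256 to 1476 ± 293 TPM (0.37, adjusted p = 0.000257). The catenin gene Ctnna1 was higher (0.36, adjusted p = 0.0461), by 0.23 without GFP-negative replicate 1 of C50 (adjusted p = 0.0114).
Of the 2 tested partners of vimentin, Nes was higher (0.40, limma adjusted p = 0.0245). The median of the 2 was 0.287, and 0.131 without GFP-negative replicate 1 of C50. No partner was called without C1 GFP-negative replicate 1, C1 GFP-positive replicate 2, either GFP-positive library of C50 or clone C1, with clone means as replicates, or with every gene above 0 TPM tested.

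The scaling of libraries bears on counts over all genes. Of all calls in the GFP comparison 34.2% were higher, and 50.9% under median-ratio scaling or 50.1% under quantile normalization. For dDAVP the share was 26.7%, against 59.6% and 53.9%. The directions given for the tested EMT genes, 5 over clones and 4 with dDAVP, were the same under both scalings. For Krt18 and Krt8, called higher in GFP-positive cells at 0.19 and 0.20, quantile normalization gave -0.30 and -0.04.

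Likeness of pattern was measured as Pearson's r over the 10 group means of log2(TPM + 1), among 9606 genes with a mean of at least 5 TPM. It is a description over groups that differ in dDAVP treatment, in sorting and in clone. Fn1 was most like Kdelr3 (r = 0.992), Zdhhc6 (0.983) and Mapkapk5 (0.981). Cdh1 was most like Tom1l2 (0.993), Slc12a7 (0.989) and Vps52 (0.985), and its lowest group mean, 276 TPM, was that of C50 GFP-negative cells. Without replicate 1 of that group these 3 values were 0.968, 0.919 and 0.924. Epcam was most like Cdh13 (0.979), Phpt1 (0.978) and Eif1b (0.976), and its r with Eif1b was 0.900 without the same library. Twist1 was most like Alg12 (0.975), Cln3 (0.967) and Tmem176b (0.965), but its r with Alg12 was 0.196 without that library. Among the EMT genes themselves, Fn1 and Epcam had r = 0.919, while Cdh1 had r = -0.617 with Epcam and -0.394 with Fn1. Without the same library these were 0.935, -0.606 and -0.467.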

How the data were processed

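RNA was measured in 22 libraries, made per the labels' protocols with the SMART-Seq HT and Nextera XT kits and sequenced paired-end. STAR and RSEM are named per the submitters' processing notes. Versions, genome build and annotation are not given in the sources used here. The authors deposited TPM per gene and library; TPM keep no depth, so depth is unknown and replicate spread is the measure of precision. The deposited table also holds the authors' ratio columns and a highest signal per line, which were not used. The 980 lines sharing 1 of 79 symbols were summed (55415 lines to 54514 entries); none was an EMT gene of the list.

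Models on log2(TPM + 1) used limma 3.58.1 with a mean-variance trend in R 4.3.3, on genes averaging 1 TPM or more in the libraries compared. P-values were adjusted by Benjamini-Hochberg over all tested genes and called under 0.05. WT libraries were compared alone. The 16 clone libraries were fitted with clone as covariate, and with a mean per clone and fraction for single clones, the interaction and differences between clones. Code was tested on simulated data. The alternatives were a pseudocount of 0.1, minima of 5 TPM or any TPM above 0, 2 scalings, other moderation, a replicate block, the number of detected genes as covariate, all 22 libraries, clone means, and leaving out each library or clone. Leaving out clones in the tests of interaction and clone differences, likeness of pattern without 1 library, and list counts over genes at 1 TPM or more in both fractions were added after seeing the data.

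Named genes are the 10, Aqp2, GFP, up to 3 called genes per list and direction with the largest change, the 3 most alike genes, and markers. The values of 1 gene that this rule names are not reported here. The 10 genes and the lists were chosen with earlier results of these data known. Marker lists were principal, intercalated, fibroblast, endothelial, leukocyte, proximal tubule and thick limb, and cell cycle.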

Additional observations from a re-analysis of the deposited data

How the results depend on the processing

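The lower Fn1 and Epcam values of GFP-positive cells over clones were called in all 31 alternatives, with log2 differences of -3.64 to -3.10 and -0.75 to -0.62. The count of EMT genes called in that comparison was 3 and stayed between 2 and 4; it was 2 where Cdh2 fell under the minimum or was not called. With dDAVP the count of 0 became 1 at a minimum of 5 TPM, 1 under quantile normalization, 2 with the number of detected genes as covariate and 1 in the fit of all 22 libraries, and was 0 to 0 when single libraries were left out. The count of 4 for differences between clones was 2 at a minimum of 5 TPM, where fewer genes were tested, 2 without clone C1, and 3 to 5 without single libraries. The interaction count ran from 0 to 1 without single libraries, and the within-clone counts from 2 to 3. Small uncalled differences changed sign: Twist1 in C11 was 0.004 under median-ratio scaling, 0.041 under quantile normalization and -0.266 to 0.036 without single libraries (0.036 without C11 GFP-negative replicate 1), and Twist1 in C43 was 0.044 under quantile normalization. Without single libraries, Twist1 in C50 was -0.207 to 0.020 (0.020 without C50 GFP-positive replicate 1) and Cdh2 in C50 -0.076 to 0.035 (0.035 without C50 GFP-negative replicate 2, 0.015 without GFP-positive replicate 1). Cdh2 in C50 was 0.003 under quantile normalization. The causes were not tested.

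Among all genes, the count called with dDAVP was 1198 and ranged from 122 with the replicate block to 2694 with detected genes as covariate. It was 4626 for GFP over clones and 2406 with clone means. Within clones it ranged from 377 to 2094 around 947 in C1, 318 to 2331 around 1041 in C11, 858 to 3891 around 2134 in C43, and 1793 to 6820 around 3486 in C50.

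The pairing by replicate number was checked by correlating deviations of same-numbered libraries from their group means. The correlations were -0.208, -0.025 and -0.109 in WT and 0.058, -0.017, 0.212 and 0.083 in C1, C11, C43 and C50, so they were over 0.1 in C43 only. The number of detected genes also went by replicate number in C1 (17177 and 18626 in replicate 1, 19431 and 24837 in replicate 2), C43 (30855 and 29973, 19002 and 19556) and C50 (17677 and 18510, 30045 and 27879). The labels name no shared batch, and the libraries were not treated as pairs. With the replicate block, 0 genes of the list were called with dDAVP, 3 over clones, 2 in C1, 2 in C11, 2 in C43, 3 in C50, 0 in the interaction and 4 between clones. Cdh2 had adjusted p-values of 0.0890 in C11 and 0.0754 in C43 and was not called there, and Cdh1 was called in C50 (0.0464). With dDAVP 0 mesenchymal markers were called under the block.

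Depth is unknown, so values of Vim, Zeb1, Zeb2, Snai1 and Snai2 listed at 0 set no limit on expression. Each fraction of a clone has 2 libraries, and the clone fits share 1 estimate of spread.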

Other observations

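Further marker lists were read in the same fits. The share of all tested genes called in the GFP comparison was 12.1% for higher and 23.2% for lower values. Of 9 tested principal-cell markers, 6 were higher and 1 lower in GFP-positive cells (median 0.914), and 7 higher and 1 lower without GFP-negative replicate 1 of C50. The 1 lower, Aqp3 (2.21 ± 1.48 and 0.975 ± 0.884 TPM), passed the minimum of 1 TPM only through GFP-negative cells. Of the 7 markers at 1 TPM or more in both fractions 6 were higher and 0 lower. Aqp2, the subject of the series, is 1 of the 6 and may not be independent of the sort. Beside Aqp2 the genes higher included Avpr2, the vasopressin V2 receptor, at 158 ± 16.2 TPM in GFP-negative and 353 ± 21.6 TPM in GFP-positive libraries (SD, n = 8 each, log2 difference 1.16, limma adjusted p = 5.03e-09). Of 3 tested intercalated-cell markers, 2 were higher and 0 lower, of 1 tested proximal-tubule and thick-limb marker 1 was higher (Lrp2, 0.56), and the 1 tested endothelial marker, Egfl7, was not called (log2 difference 0.23, adjusted p = 0.0563). Egfl7 was called higher under quantile normalization (0.34, adjusted p = 0.0166), without GFP-negative replicate 1 of C50 (0.28, adjusted p = 0.00896) and within C1 (0.58, adjusted p = 0.0234). With dDAVP in WT cells, where 2.37% of all genes were called higher and 6.51% lower, 7 of 10 cell-cycle genes were called lower (median -0.603), and 2 of 10 under median-ratio scaling or 5 of 10 under quantile normalization. Of 9 principal-cell markers 3 were higher and 2 lower with dDAVP, 3 and 1 under median-ratio scaling and 3 and 0 under quantile normalization, and 0 of the tested endothelial, leukocyte, and proximal-tubule and thick-limb markers were called.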
